A study of Mus musculus with 14 samples.

Results

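The genes described here are 48 mouse genes that act in DNA replication and in mitosis, taken from a list of gene names by function. The list was chosen with earlier results of these data known. All 48 were among the 55291 gene symbols of the count table, all 48 passed the filter on low counts with 20562 genes in all, and 0 of them had a count of 0 in any library. Total RNA was sequenced from 14 libraries of cells labelled C57BL/6J. Mouse embryonic fibroblasts (MEF, 3 libraries), connective tissue cells from E13.5 embryos, were the starting cells of a chemical protocol that leads towards retinal pigment epithelium (RPE), the pigmented cell layer behind the photoreceptors. Treated cells were collected on day 7 (D7, 3 libraries) and day 18 (D18, 3 libraries) in M7 reprogramming medium, which held bFGF, CHIR-99021, LDN193189, A 83-01, Hh-Ag1.5, RG108, BMS-345541 and CKI-7. Cells of day 32 (D32, 3 libraries) had moved to M3 medium with Y27632, nicotinamide, retinoic acid and activin A. Primary RPE (P-RPE, 2 libraries) had no treatment. The labels name M7 medium as the treatment of the MEF libraries too, and they give the embryonic tissue for all 14 libraries, P-RPE included. Per the labels, cells were scraped where the induction looked successful, so the treated groups are selected cells. The labels do not say whether the libraries of a group are separate cultures or animals, and a p-value here measures no more than the spread between these libraries.

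Before a cell divides, it loads the MCM helicase onto its DNA with the help of Cdc6 and Cdt1, copies the DNA in S phase with polymerases held on by the sliding clamp Pcna, and then separates the copies in mitosis under the control of Cdk1 and its cyclins. E2F factors are known to switch on replication genes around the start of S phase, and the DREAM and MuvB complexes with Mybl2 and Foxm1 are known to act on the later mitotic genes through a promoter element called CHR. Cultured embryonic fibroblasts divide, whereas the mature RPE of the eye is known as a tissue whose cells seldom do.

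Because the early and late genes are known for different promoter elements, the RefSeq promoters (GRCm38.p6, 250 bases before to 50 after the start) were searched on both strands. The motifs were the CHR element TTTGAA, the CCAAT box CCAAT, and E2F site cores. One core was TTCCCGC, another was TTGGCGC, a further one was TTCGCGC and the last one was TTGCCGC, and overlapping matches were each counted. Of the 48 genes, 39 had a promoter in the table, which holds 27025 genes. The CHR element was in 14 of the 20 mitosis promoters (70%), in 1 of the 14 replication promoters (7.14%), and in 20.2% of all promoters. An E2F core was in 3 of the 20 mitosis promoters (15%), in 10 of the 14 replication promoters (71.4%), and in 10.9% of all promoters. A CCAAT box was in 85% of the mitosis promoters, in 78.6% of the replication promoters, and in 41.1% of all. Of the 5 promoters of cyclin E and transcription factor genes, 2 (40%) held a CHR element, 2 a CCAAT box and 2 an E2F core. The median GC content was 58.7% over the 39 promoters and 52.7% over all. The promoters shown are those of the mitosis and replication genes with the largest falls at D18 against D7 that hold a match, written 5′ to 3′ on the gene's strand with the matches in capitals. Mki67 (chr7:135716330-135716629, minus strand), which encodes the Ki-67 protein that coats mitotic chromosomes, held 2 CHR elements, 3 CCAAT boxes and 1 E2F core. Bub1 (chr2:127831810-127832109, minus strand), a spindle checkpoint kinase, held 2 CCAAT boxes and 0 matches to TTTGAA. Other spellings of the CHR element were not searched, here or for the shares above. Cdt1 (chr8:122567765-122568064, plus strand) held 2 E2F cores. Mcm5 (chr8:75109259-75109558, plus strand), a subunit of the helicase, held 3 E2F cores, of which a pair overlaps, and 3 CCAAT boxes. A match is a description of these letters and was not tested for binding.
Mki67: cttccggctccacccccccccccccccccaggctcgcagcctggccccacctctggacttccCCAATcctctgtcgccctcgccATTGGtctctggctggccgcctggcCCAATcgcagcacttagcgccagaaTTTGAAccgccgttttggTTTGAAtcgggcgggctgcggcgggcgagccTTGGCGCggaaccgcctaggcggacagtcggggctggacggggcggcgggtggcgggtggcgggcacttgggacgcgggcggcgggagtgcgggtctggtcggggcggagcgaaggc
Bub1: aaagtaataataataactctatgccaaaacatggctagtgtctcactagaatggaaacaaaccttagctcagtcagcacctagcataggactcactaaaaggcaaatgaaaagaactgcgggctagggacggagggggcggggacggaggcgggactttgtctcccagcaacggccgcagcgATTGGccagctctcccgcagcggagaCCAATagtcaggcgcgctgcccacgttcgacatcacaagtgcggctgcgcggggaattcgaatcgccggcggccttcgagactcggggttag
Cdt1: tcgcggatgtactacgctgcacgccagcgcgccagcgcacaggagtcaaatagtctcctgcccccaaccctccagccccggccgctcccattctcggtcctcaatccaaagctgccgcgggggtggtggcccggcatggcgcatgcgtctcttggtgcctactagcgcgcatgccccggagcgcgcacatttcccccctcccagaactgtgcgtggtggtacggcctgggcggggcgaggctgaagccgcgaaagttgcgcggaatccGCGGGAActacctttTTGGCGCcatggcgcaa
Mcm5: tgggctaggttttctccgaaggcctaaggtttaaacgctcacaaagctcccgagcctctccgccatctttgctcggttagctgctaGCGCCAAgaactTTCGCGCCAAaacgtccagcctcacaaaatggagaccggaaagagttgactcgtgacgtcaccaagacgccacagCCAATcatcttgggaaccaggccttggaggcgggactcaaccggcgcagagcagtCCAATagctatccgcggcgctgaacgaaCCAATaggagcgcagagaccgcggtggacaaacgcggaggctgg

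Total counts per library ranged from 32352405 to 41390196, so 1 count was worth 0.0227 to 0.0304 CPM (counts scaled to a common library size, with TMM factors). The relative spread between libraries, as edgeR's common biological coefficient of variation, was 0.0426 in MEF and 0.158 at D7, then 0.250 at D18 and 0.214 at D32, with 0.218 in P-RPE. RPE markers summed to 3.94 to 4.11 CPM in MEF, with 7 of 12 at 0, and to 16.4 to 17.7 CPM at D7. They summed to 13.9 to 20.0 CPM in D18 cells, 4481 to 8579 CPM in D32 cells and 57329 to 64716 CPM in P-RPE. Fibroblast markers summed to 13125 to 13676 CPM in MEF and 11795 to 17683 at D32. Markers of other cells are given, as sums or as counts of calls, beside the comparisons they move with.

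The 48 genes together took 0.378% to 0.406% of all counts in MEF and 0.151% to 0.152% at D7. In D18 cells the share was 0.0322% to 0.0383%, in D32 cells 0.129% to 0.173%, and in P-RPE 0.0313% to 0.0331%. Their summed level was 4300.2 ± 93.9 CPM in MEF, 1332 ± 6.65 at D7, 359 ± 16.9 at D18 and 1373 ± 222 at D32 (SD, n = 3 each), and 359.6 ± 9.89 CPM in P-RPE (SD, n = 2). The libraries of D7 and D32 overlapped in this sum, and so did those of D18 and P-RPE, while MEF lay above all others. In bulk RNA, fewer dividing cells and less of these RNAs per cell cannot be told apart. By group mean, 47 of the 48 genes were highest in MEF and E2f2 was highest at D7, while 32 were lowest in P-RPE and 16 at D18.

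**Figure D1:**
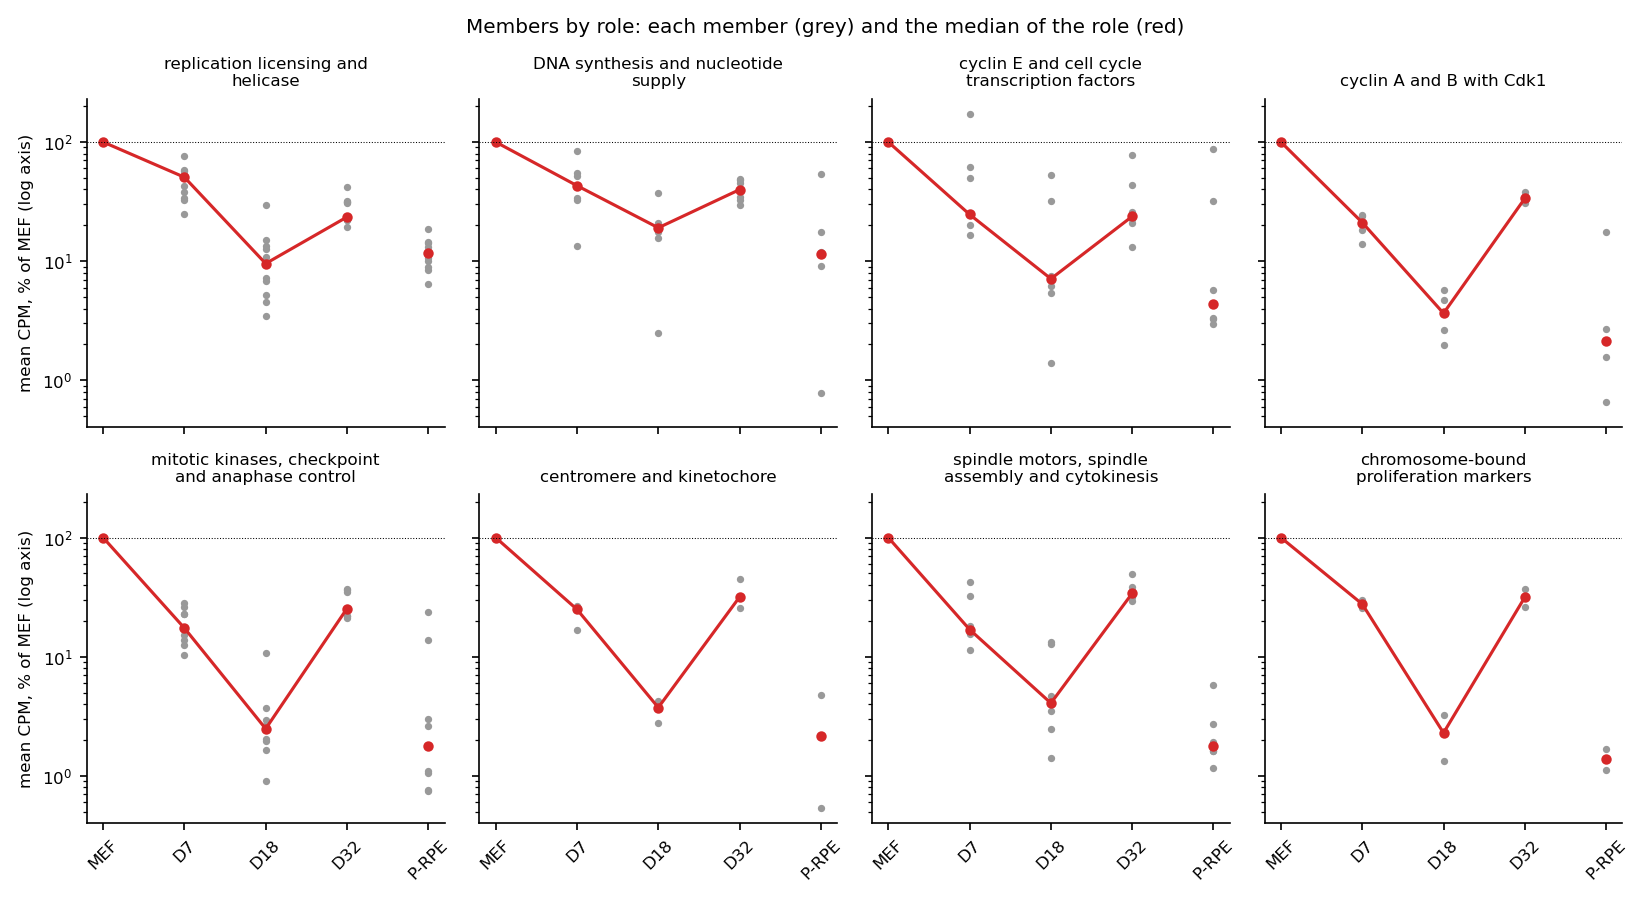
Mean CPM of each of the 48 genes as a percentage of its MEF mean (log axis), in a panel per role, with the genes in grey and the median of the role in red. The mitotic roles reach lower medians at D18 and in P-RPE than the replication roles, and E2f2 is the gene above 100% at D7.

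The licensing and helicase genes came first in the order of roles. Mcm4, a subunit of the replicative helicase, had the highest mean level per length of these genes over the 14 libraries. It had 115, 107 and 109 CPM in the 3 MEF libraries, 63.1, 56.5 and 71.9 at D7 and 33.03, 32.25 and 31.91 at D18. It had 40.2, 33.0 and 31.0 CPM at D32, and 19.7 and 21.8 CPM in P-RPE. Mcm4 stepped down to D18, its D18 and D32 libraries overlapped, and P-RPE was lowest. Mcm10, which helps to activate the loaded helicase, had 24.6, 23.7 and 23.0 CPM in MEF, 7.52, 7.33 and 8.19 at D7, and 1.24, 0.613 and 1.40 at D18. It returned to 8.86, 6.70 and 7.33 CPM at D32 and had 2.41 and 2.33 CPM in P-RPE. Its D32 libraries overlapped those of D7, and its D18 libraries lay below both P-RPE libraries.

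Among the genes of DNA synthesis and nucleotide supply, Pcna, the sliding clamp, had the highest mean level per length over the 14 libraries. It was highest in MEF and lowest at D18, at 37.1% of its MEF mean. Pcna had 162, 167 and 157 CPM in MEF, 139.6, 122 and 148 at D7, and 57.7, 62.8 and 59.8 at D18. It had 80.1, 68.4 and 70.8 CPM at D32, and 88.1 and 85.2 CPM in P-RPE. Unlike the other members of its role, Pcna was above all D32 libraries in P-RPE. Rrm2, the regulated subunit of ribonucleotide reductase, which makes deoxynucleotides, had 269.6, 254 and 258 CPM in MEF and 34.11, 32.22 and 37.99 at D7. It had 6.68, 4.48 and 8.21 CPM at D18, 146, 69.9 and 54.2 at D32, and 2.46 and 1.61 in P-RPE. No libraries of neighbouring groups overlapped, and D32 replicate 1 stood above the other D32 libraries.

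E2f1 and E2f8 show how the transcription factors differed. E2f1, an activator of S phase genes, had 64.5, 62.5 and 64.7 CPM in MEF, 39.5, 34.8 and 43.1 at D7, and 22.0, 22.0 and 17.5 at D18. It had 24.4, 34.7 and 23.9 CPM at D32, and 21.3 and 19.7 CPM in P-RPE. The D18 and P-RPE libraries of E2f1 overlapped, and D32 replicate 2 was the highest of D32. E2f8, an atypical E2F known as a repressor, had 35.7, 36.8 and 35.8 CPM in MEF, 20.5, 17.1 and 16.4 at D7, and 0.758, 0.240 and 0.513 at D18. It had 5.18, 4.04 and 4.88 CPM at D32, and 0.951 and 1.18 CPM in P-RPE. E2f8 was lowest at D18, with no overlap between any of the groups.

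Ccnb1 and Ccnb2 stand for the cyclins that work with Cdk1. Ccnb1, a B-type cyclin, had 107.7, 100.9 and 104.2 CPM in MEF, 17.8, 24 and 15.2 at D7, and 2.13, 1.63 and 2.45 at D18. It had 43.3, 30.8 and 25.8 CPM at D32, and 0.559 and 0.804 CPM in P-RPE. Ccnb2, the other B-type cyclin shown, had 56.5, 54.5 and 54.6 CPM in MEF, 7.11, 10.9 and 4.97 at D7, and 1.38, 1.09 and 1.88 at D18. For both cyclins the D32 libraries lay above those of D7 and below those of MEF. Ccnb2 had 21.7, 19.4 and 17.3 CPM at D32, and 0.559 and 1.18 CPM in P-RPE. The D18 and P-RPE libraries of Ccnb2 overlapped, and those of Ccnb1 did not.

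Of the mitotic kinases and checkpoint genes, Cdc20 and Bub1 were chosen by level and by change. Cdc20, which activates the anaphase-promoting complex, had 226, 221 and 215 CPM in MEF, 21.5, 26.8 and 19.5 at D7, and 3.82, 4.13 and 5.64 at D18. It had 56.9, 69.5 and 38.1 CPM at D32, and 5.43 and 7.93 CPM in P-RPE. The D18 and P-RPE libraries of Cdc20 overlapped, and its D32 libraries lay above those of D7. Cdc20 was the highest of the 48 genes per kilobase of exon in MEF, at 118 CPM per kb, and Pcna was the highest per kilobase at D18, at 25.0 CPM per kb. Bub1 had 36.7, 35.8 and 35.4 CPM in MEF, 6.33, 8.02 and 4.42 at D7, and 0.590, 0.107 and 0.285 at D18. It had 12.6, 7.15 and 7.90 CPM at D32, and 0.224 and 0.321 CPM in P-RPE. The D18 and P-RPE libraries of Bub1 overlapped near the level of a few counts.

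Cenpa, the histone H3 variant that marks centromeres, had 56.1, 49.9 and 55.1 CPM in MEF, 13.3, 18.8 and 10.4 at D7, and 1.97, 2.13 and 2.68 at D18. It had 28.0, 22.7 and 22.1 CPM at D32, and 2.66 and 2.49 CPM in P-RPE. Cenpa libraries of D32 lay above all D7 libraries, and those of D18 and P-RPE overlapped. Tpx2, a spindle assembly factor that activates Aurka, had 165, 157 and 161 CPM in MEF, 26.2, 28.1 and 20.5 at D7, and 4.55, 5.01 and 7.24 at D18. It had 63.4, 46.5 and 48.5 CPM at D32, and 1.40 and 2.33 CPM in P-RPE. Tpx2 showed no overlap between any of the groups. Kif23, a kinesin of the central spindle needed for cytokinesis, had 71.6, 69.6 and 71.2 CPM in MEF, 10.6, 14.5 and 8.26 at D7, and 0.646, 0.693 and 1.68 at D18. It had 24.4, 19.1 and 19.4 CPM at D32, and 1.82 and 2.01 CPM in P-RPE. Kif23 was lowest at D18, unlike Tpx2, which was lowest in P-RPE.

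Mki67 and Top2a, widely used as marks of proliferating cells, followed the mitotic genes. Mki67 had 250.2, 220.3 and 244 CPM in MEF, 59.1, 79.4 and 44.5 at D7, and 3.48, 2.24 and 3.87 at D18. It had 75.4, 52.6 and 59.2 CPM at D32, and 4.53 and 3.43 CPM in P-RPE. The D7 and D32 libraries of Mki67 overlapped, and so did those of D18 and P-RPE. Top2a, the topoisomerase that untangles sister chromatids, had 239.9, 225 and 233 CPM in MEF, 65.6, 83.3 and 58.6 at D7, and 8.03, 5.68 and 8.95 at D18. It had 111, 71.0 and 75.7 CPM at D32, and 2.41 and 2.79 CPM in P-RPE. Top2a differed from Mki67 in that both P-RPE libraries lay below all D18 libraries.

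**Figure D2:**
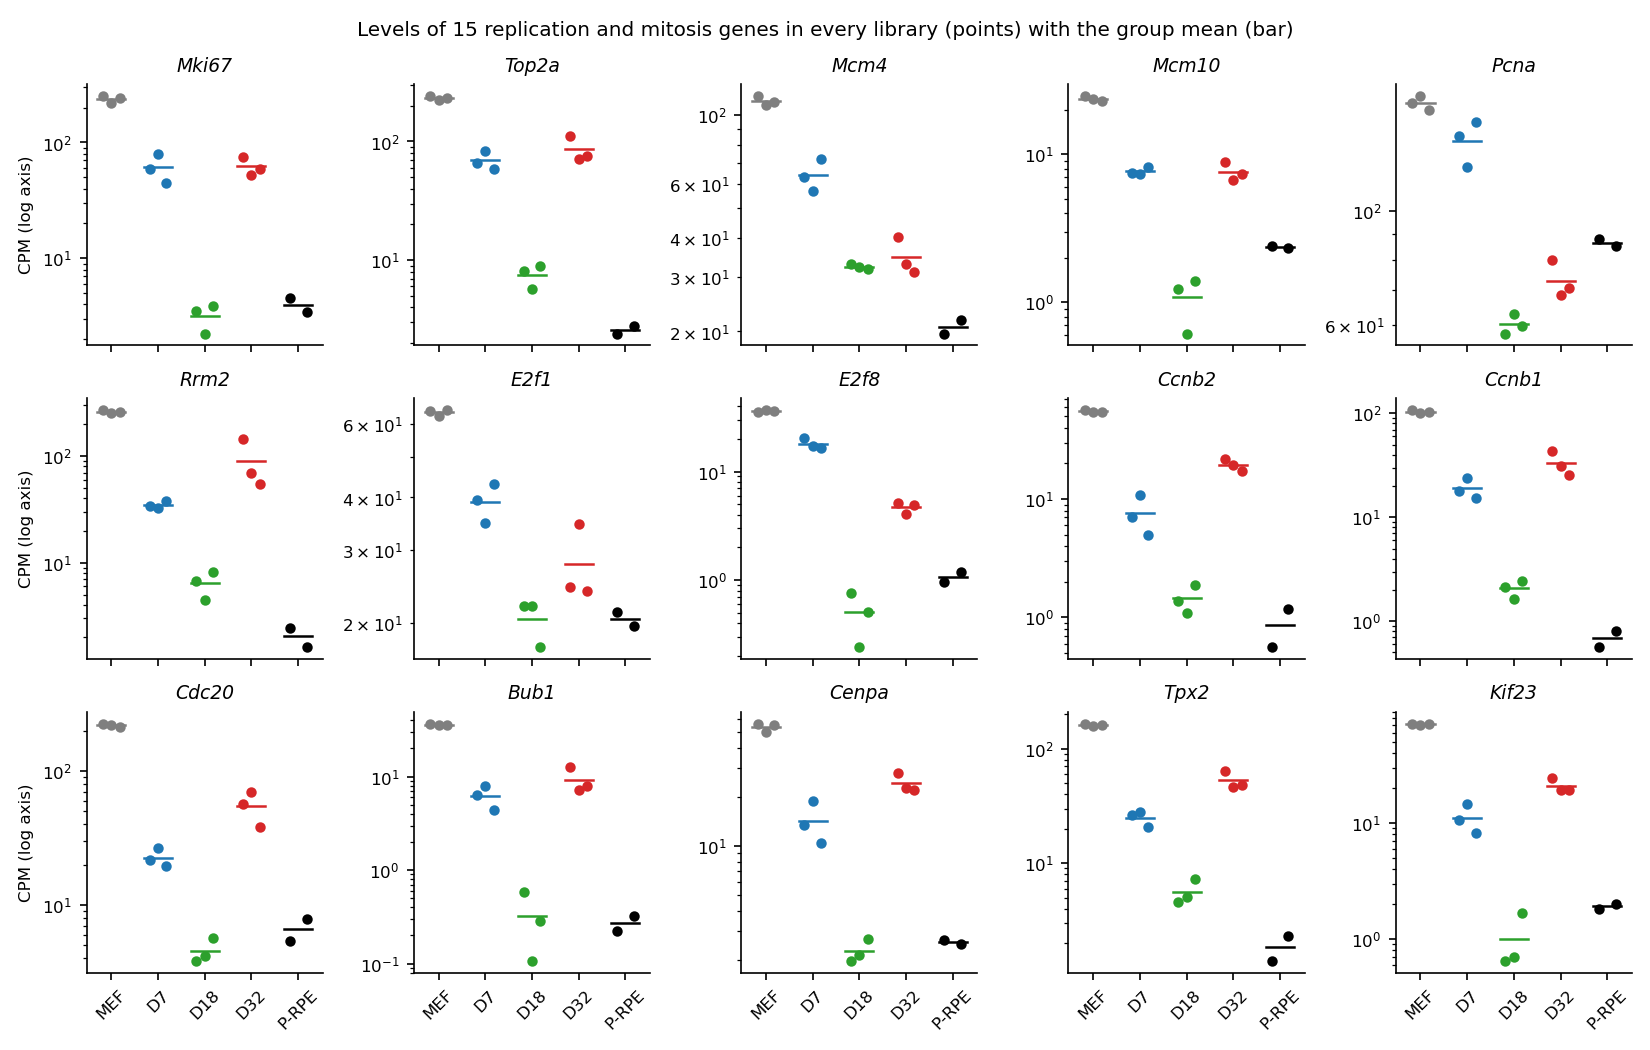
CPM (log axis) of the 15 genes given by library, with a point per library and a bar at the group mean. MEF is the highest group in each panel, D18 or P-RPE the lowest, and D32 lies between MEF and D18 by group mean.

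The comparison of D7 with MEF asked what the first 7 days of treatment changed. At D7, 46 of the 48 genes were lower, 1 was higher and 1 did not pass, by edgeR's quasi-likelihood test at a Benjamini-Hochberg adjusted p under 0.05. Over all 20562 genes tested, 26.5% were called lower and 28.5% higher, and 51.8% of the called genes were higher, or 69.7% where libraries were scaled by their totals alone. The median log2 change was -2.30 over the 24 mitosis genes and -0.98 over the 17 replication genes, against 0.04 over all genes. The log2 changes ran from -3.29 to -1.22 over the mitosis genes and from -2.90 to -0.25 over the replication genes. Cdc20 fell most, to 22.6 ± 3.76 CPM at D7 against 221 ± 5.29 CPM in MEF (SD, n = 3 each), a log2 change of -3.29 with an SE of 0.22 and an adjusted p of 1.62e-08 by edgeR. Rrm2 fell to 34.8 ± 2.94 CPM at D7, against 260.3 ± 8.21 CPM in MEF, a log2 change of -2.90 (SE 0.32, edgeR adjusted p = 4.85e-06). Mcm4 fell by 0.79 on the log2 scale (SE 0.11, edgeR adjusted p = 2.67e-05).

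Cdt1, the licensing factor, was the gene that did not pass, with 38.3, 24.8 and 43.9 CPM at D7 and 45.8, 45.8 and 47.8 CPM in MEF. Its libraries did not overlap, but D7 replicate 2 stood below the others, and its log2 change was -0.38 (SE 0.20, edgeR adjusted p = 0.128). Without D7 replicate 3 the change was -0.59, with an edgeR adjusted p of 0.0352. E2f2, an activator E2F at low level here, had 4.45, 3.45 and 4.14 CPM at D7 and 1.89, 2.38 and 2.72 CPM in MEF. All D7 libraries were above all MEF libraries, with a log2 change of 0.78 (SE 0.31, edgeR adjusted p = 0.0466). This call ended on leaving out any single library other than D18 replicate 1 or 3, and the adjusted p then ran from 0.0536 to 0.154. Pcna was also near the threshold, with a log2 change of -0.25 (SE 0.09, edgeR adjusted p = 0.0393), and it changed sign to 0.073 with libraries scaled by their totals alone. Its call ended without MEF replicate 1, 2 or 3 and without D7 replicate 2, where the adjusted p ran from 0.0594 to 0.113, and without P-RPE replicate 1 or 2, where it was 0.0539 and 0.054. The Pcna call also ended with no filter and with a mean of at least 5 CPM.

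Markers of other cells moved at D7 as well. Astroglial markers summed to 1298 to 1880 CPM at D7 and 75.9 to 77.7 CPM in MEF, with 8 of 8 called higher. Macrophage and microglia markers summed to 18.19 to 20.48 CPM at D7 and 68.8 to 77.6 CPM in MEF, with 6 of 10 called lower. Endothelial markers summed to 12.9 to 18.8 CPM at D7 and 94.6 to 108 CPM in MEF, with 4 of 9 called lower and 1 higher. Fibroblast markers summed to 8142 to 8896 CPM at D7 and 13125 to 13676 CPM in MEF, with 3 of 9 called lower and 2 higher, and of the neuron markers 5 of 8 were called higher and 2 lower. Among all genes tested, 26.5% were called lower and 28.5% higher at D7. The fibroblast counts and the 2 neuron markers called lower are near those shares. The part of these cells in the fall of the 48 genes was not tested.

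Within D7, the replicates ordered the genes in opposite ways. D7 replicate 2 was the highest of the 3 libraries for 22 of the 24 mitosis genes and the lowest for 14 of the 17 replication genes. D7 replicate 3 was the lowest for 22 of the 24 mitosis genes and the highest for 14 of the 17 replication genes. The summed CPM of the mitosis genes over that of the replication genes was 0.559, 0.810 and 0.420 in D7 replicates 1, 2 and 3, while the sum of all 48 genes ran from 1326 to 1339 CPM. The same ratio was 1.27 to 1.31 in MEF and 0.256 to 0.364 in D18 cells, then 1.10 to 1.2 in D32 cells, with 0.304 to 0.326 in P-RPE. The D18 and P-RPE libraries overlapped in this ratio, and every D32 library was above every D7 library.

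**Figure D3:**
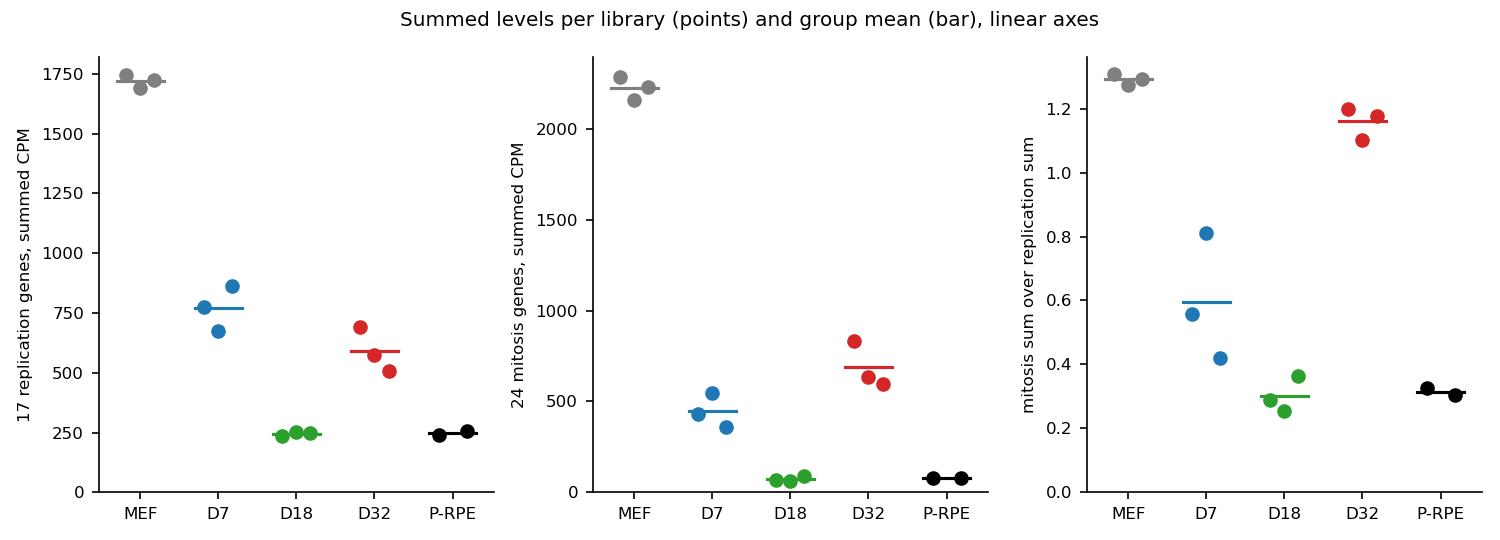
Summed CPM of the 17 replication genes (left) and the 24 mitosis genes (middle), and the ratio of the sums (right), with a point per library and a bar at the group mean on linear axes from 0. The 3 D7 libraries spread from 0.420 to 0.810 in the ratio, and the 3 D32 libraries sit between 1.10 and 1.2.

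The comparison of D18 with D7 asked what a longer stay in the first medium changed. At D18 all 48 genes were lower by edgeR's quasi-likelihood test (Benjamini-Hochberg adjusted p under 0.05), and the libraries of D18 and D7 did not overlap for any of the 48. Of all genes tested, 27.4% were called lower, 29.2% higher, and 31.3% had all D18 libraries below all D7 libraries. Of all called genes 51.6% were higher, or 40.7% with totals alone. The median log2 change was -2.50 over the mitosis genes and -1.74 over the replication genes, against 0.00 over all genes. This comparison shares the D7 libraries with the one before, so the changes are not independent of each other.

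E2f8 fell the most of the 48, to 0.504 ± 0.259 CPM at D18 against 18 ± 2.22 CPM at D7, which is 35.7-fold lower (log2 change -5.16, SE 0.26, edgeR adjusted p = 1.00e-09). Mki67 was 19.1-fold lower (log2 change -4.26, SE 0.25, edgeR adjusted p = 5.87e-09), and so was Bub1 (log2 change -4.26, SE 0.40, edgeR adjusted p = 4.02e-07), whose change was -4.99 without D18 replicate 1. Cdt1 had 2.42, 3.57 and 3.56 CPM at D18 and 38.3, 24.8 and 43.9 CPM at D7, which is 11.2-fold lower (edgeR adjusted p = 1.27e-08). The smallest fall was that of Rrm1, the large subunit of ribonucleotide reductase, at -0.68 (SE 0.10, edgeR adjusted p = 3.23e-05), followed by E2f1 at -0.93 and Mcm4 at -0.98. The log2 changes ran from -4.26 to -1.08 over the mitosis genes and from -3.48 to -0.68 over the replication genes. Over the cyclin E and transcription factor genes they ran from -5.16 to -0.93. Markers of astroglia, which summed to 24593 to 36223 CPM at D18 and 1298 to 1880 CPM at D7, moved with this fall, as 6 of the 8 were called higher and 0 were at 0. Fibroblast markers spread from 3354 to 14482 CPM in D18 libraries, against 8142 to 8896 CPM at D7, with 3 of 9 called lower and 1 higher. Endothelial markers had 3 of 9 called lower and 2 higher, and neuron markers 3 of 8 lower and 2 higher. Among all genes 27.4% were called lower and 29.2% higher. Their part in the result was not tested.

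The comparison of D32 with D18 asked what followed the change to the second medium. At D32, 45 of the 48 genes were higher, 0 lower, and 3 did not pass, by edgeR's quasi-likelihood test (Benjamini-Hochberg adjusted p under 0.05). Of all genes tested 29.9% were called higher and 26.1% lower, and 30.8% had all D32 libraries above all D18 libraries, as 45 of the 48 did. The median log2 change was 3.38 over the mitosis genes and 1.29 over the replication genes, against 0.07 over all genes. The log2 changes ran from 1.30 to 4.82 over the mitosis genes and from 0.10 to 3.80 over the replication genes. This comparison shares the D18 libraries with the one before.

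Bub1 rose most, to 9.23 ± 2.97 CPM at D32 against 0.327 ± 0.244 CPM at D18 (SD, n = 3 each), which is 28.2-fold (log2 change 4.82, SE 0.40, edgeR adjusted p = 1.18e-07). Without D18 replicate 1, the highest of D18, its log2 change was 5.55. Kif23 was 20.9-fold and Mki67 19.5-fold higher (edgeR adjusted p = 1.83e-08 and 5.30e-09). Ccnb1 was 16.1-fold and Ccnb2 13.4-fold higher (edgeR adjusted p = 3.07e-09 and 7.19e-08). Of the replication genes, Rrm2 rose most, 13.9-fold (log2 change 3.80, SE 0.34, edgeR adjusted p = 7.52e-07), and Mcm10 rose 7.06-fold (edgeR adjusted p = 1.14e-07). Mcm4 did not pass, with a log2 change of 0.10 (SE 0.11, edgeR adjusted p = 0.466) that was -0.015 without D32 replicate 1. Pola1, the catalytic subunit of DNA polymerase alpha, had 13.1, 7.60 and 8.61 CPM at D32 and 6.52, 5.04 and 9.06 CPM at D18. These overlapped, with a log2 change of 0.51 (SE 0.22, edgeR adjusted p = 0.0594), which was 0.76 with an edgeR adjusted p of 0.00936 without D18 replicate 3 and 0.66 with 0.0231 without D32 replicate 2.

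E2f2 did not pass either, with 1.88, 1.74 and 1.77 CPM at D32 and 0.646, 1.07 and 1.97 CPM at D18 (log2 change 0.55, SE 0.33, edgeR adjusted p = 0.169). Without D18 replicate 3 its change was 1.06 with an edgeR adjusted p of 0.00894. The call of Pcna (log2 change 0.28, edgeR adjusted p = 0.0199) ended without D18 replicate 1 or 3 or D32 replicate 1, where the adjusted p ran from 0.0517 to 0.0797. This Pcna call also ended with RLE size factors, no filter, DESeq2 and the 2 groups alone. The call of E2f1 (log2 change 0.43, edgeR adjusted p = 0.0198) ended without D18 replicate 3 (0.33, adjusted p = 0.0902) or D32 replicate 2 (0.24, adjusted p = 0.104). It also ended with the 2 groups alone. Within D32, replicate 1 was the highest of the 3 libraries for 22 of the 24 mitosis genes and 11 of the 17 replication genes, and replicate 3 was the highest for 0 of the 48.

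Markers of other cells moved at D32 too, most lists up and the astroglial and neuron lists down. Endothelial markers summed to 195 to 262 CPM at D32 and 2.62 to 11.4 CPM at D18, with 9 of 9 called higher and Cldn5 at 0 at D18. Macrophage and microglia markers summed to 161 to 278 CPM at D32 and 11.1 to 41.2 CPM at D18, with 9 of 10 called higher. Red cell markers summed to 103 to 204 CPM at D32 and 0.112 to 0.453 CPM at D18, with 6 of the 7 tested called higher and 7 of the 9 listed at 0 at D18, Hba-a1 and Hbb-bs among them. Rod and cone markers summed to 6.61 to 52.1 CPM at D32 and 3.92 to 4.64 CPM at D18, with 7 of 8 called higher. Of the RPE markers 11 of 12 were called higher, and of the fibroblast markers 5 of 9 were called higher and 1 lower. Astroglial markers summed to 2014 to 2183 CPM at D32 and 24593 to 36223 CPM at D18, with 8 of 8 called lower. Neuron markers summed to 99.4 to 107 CPM at D32 and 216 to 238 CPM at D18, with 5 of 8 called lower and 1 higher. Among all genes tested, 29.9% were called higher and 26.1% lower. The part of these cells in the rise of the 48 genes was not tested.

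**Figure D4:**
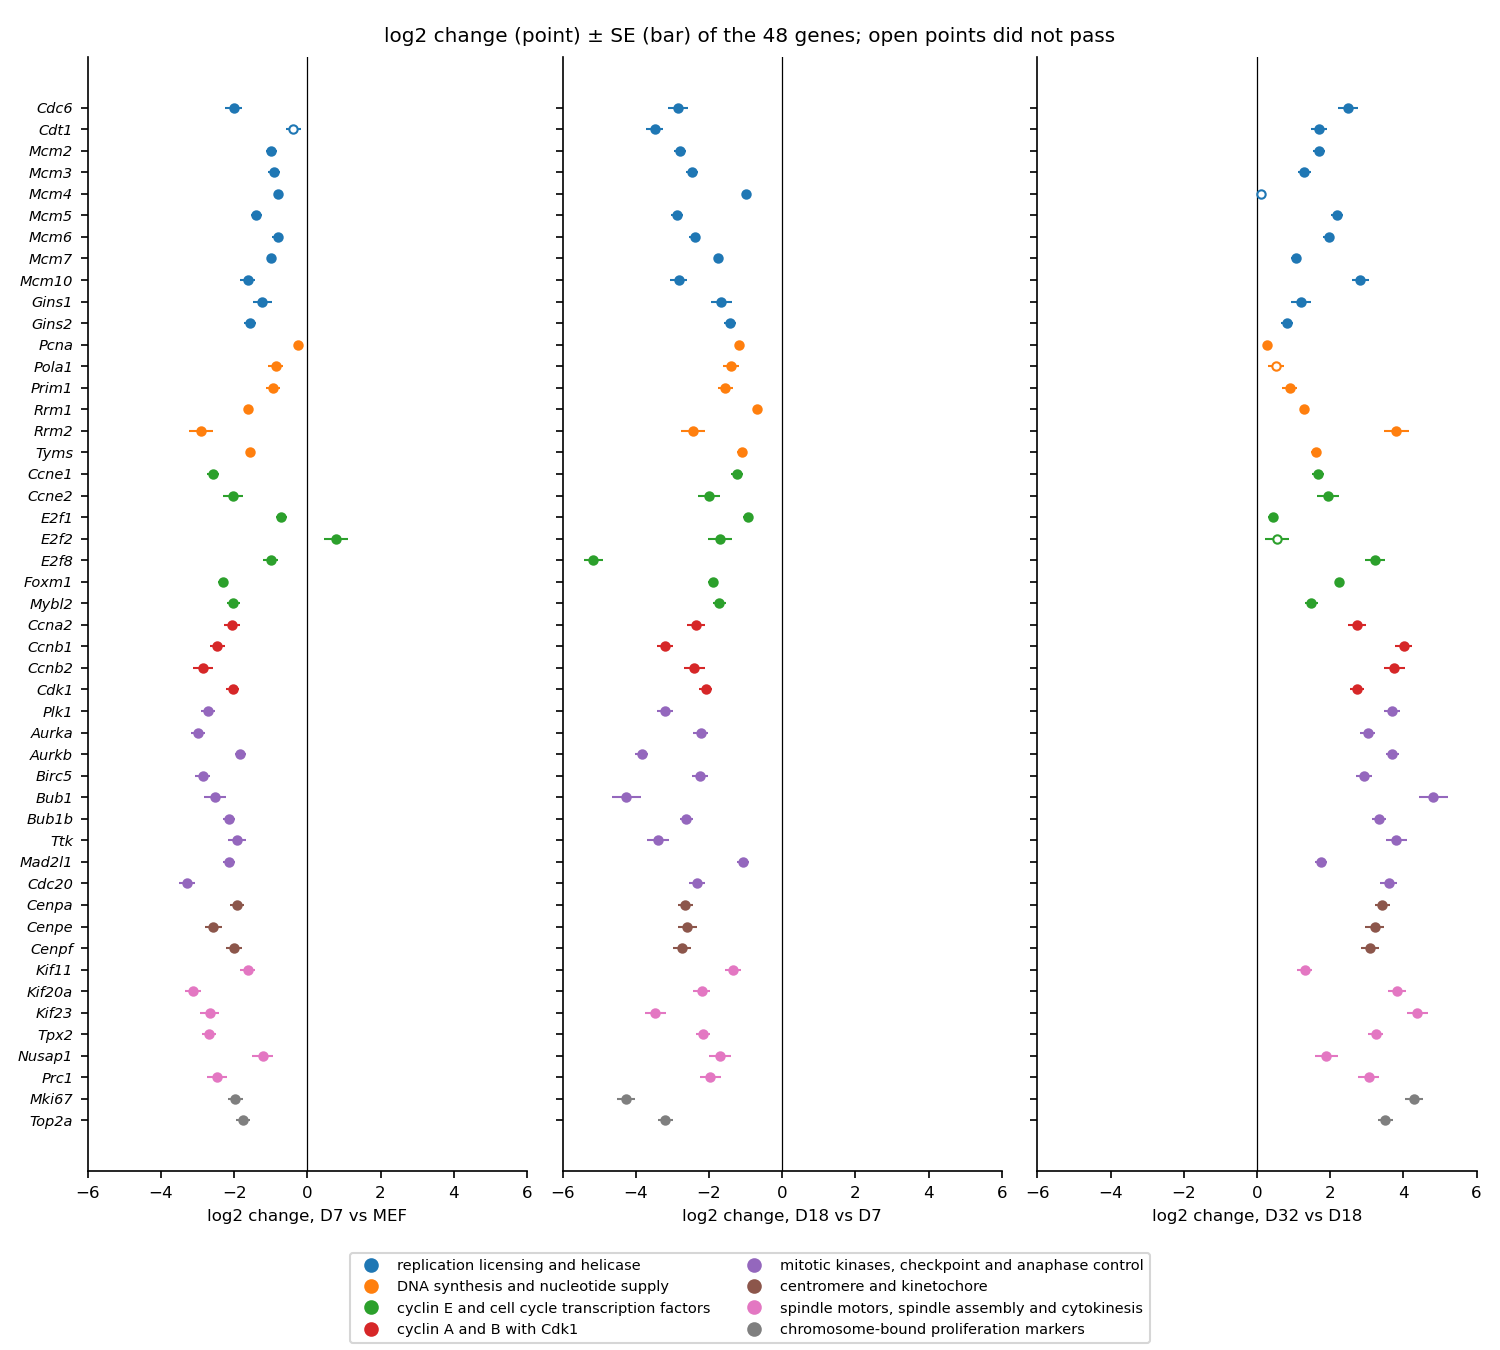
log2 change of each of the 48 genes at D7 against MEF, D18 against D7 and D32 against D18, with bars for the SE, colours for the roles and open points for genes that did not pass. The mitotic genes, from Ccna2 down, have median changes of -2.30, -2.50 and 3.38, and the replication genes at the top have -0.98, -1.74 and 1.29.

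Against the starting fibroblasts, 47 of the 48 genes were lower at D32, 0 were higher and E2f2 did not pass, by edgeR's quasi-likelihood test (Benjamini-Hochberg adjusted p under 0.05), where 24.6% of all genes were called lower and 35.6% higher. The median log2 change was -1.65 over the mitosis genes and -1.67 over the replication genes, against 0.26 over all genes. Mki67 had 62.4 ± 11.7 CPM at D32 and 238 ± 15.7 CPM in MEF (log2 change -1.93, SE 0.21, edgeR adjusted p = 2.70e-06). E2f8 showed the largest fall, to 13% of its MEF mean (log2 change -2.94, SE 0.22, edgeR adjusted p = 3.33e-08), and the smallest called falls were those of Rrm1 at -1.02 and Nusap1 at -1.02, a spindle-associated protein. E2f2 had a log2 change of -0.37 (SE 0.32, edgeR adjusted p = 0.327). Of the RPE markers 12 of 12 were called higher at D32, of the rod and cone markers 8 of 8 and of the astroglial markers 7 of 8, with sums of 2014 to 2183 CPM at D32 and 75.9 to 77.7 CPM in MEF for the astroglial list. Of the endothelial markers 7 of 9 were called higher and 1 lower (195 to 262 CPM at D32 and 94.6 to 108 CPM in MEF), of the macrophage markers 7 of 10 were called higher (161 to 278 CPM at D32 and 68.8 to 77.6 CPM in MEF), and of the red cell markers 5 of the 7 tested (103 to 204 CPM at D32 and 0.170 to 0.639 CPM in MEF). The fibroblast list had 2 of 9 higher and 3 lower, and the neuron list 2 of 8 higher and 3 lower. Their part in the result was not tested. This and the comparisons that follow reuse libraries of those above.

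Primary RPE was set beside MEF as well. In P-RPE 47 of the 48 genes were lower than in MEF by edgeR's quasi-likelihood test (Benjamini-Hochberg adjusted p under 0.05), 0 were higher and E2f2 did not pass, where 31.4% of all genes were called lower and 39.3% higher. The median log2 change was -5.86 over the mitosis genes and -3.11 over the replication genes, against 0.18 over all genes. Cenpf, a large kinetochore protein, had 0.336 and 0.268 CPM in P-RPE, against 58.0, 52.0 and 58.2 CPM in MEF, and was 184-fold lower (log2 change -7.52, SE 0.39, edgeR adjusted p = 2.68e-10). Ccnb1 was 152-fold and Rrm2 128-fold lower (edgeR adjusted p = 7.91e-11 and 2.47e-08). Pcna kept the largest share of its MEF level of the called genes, at 53.5%, with a log2 change of -0.90 (SE 0.11, edgeR adjusted p = 2.72e-06). Bub1b, the checkpoint kinase BubR1, had 16.2 and 18.6 CPM in P-RPE and 74.9, 70.5 and 74.4 CPM in MEF, and was 4.21-fold lower (edgeR adjusted p = 1.35e-07). Cdk1, the kinase that drives entry into mitosis, had 18.9 and 14.2 CPM in P-RPE and 98.2, 91.0 and 96.1 CPM in MEF, and was 5.74-fold lower (edgeR adjusted p = 4.27e-08). Markers of other cells differed too. Of the macrophage markers 10 of 10 were called higher in P-RPE (1342 to 1457 CPM in P-RPE and 68.8 to 77.6 CPM in MEF), of the endothelial markers 9 of 9 (815 to 939 CPM in P-RPE and 94.6 to 108 CPM in MEF), and of the rod and cone markers 8 of 8 (913 to 2562 CPM in P-RPE and 0.624 to 1.40 CPM in MEF). Of the red cell markers 6 of the 7 tested were called higher, of the RPE markers 12 of 12, and of the astroglial markers 7 of 8, with 1 lower. Fibroblast markers had 8 of 9 called lower (790.2 to 1019 CPM in P-RPE and 13125 to 13676 CPM in MEF), and neuron markers 5 of 8 lower and 3 higher. Their part in the result was not tested. Bub1b and Cdk1 stood at 23.7% and 17.4% of MEF, while the median over the mitosis genes was 1.72%.

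The comparison of D32 with P-RPE asked how the treated cells differ from primary RPE. At D32, 46 of the 48 genes were higher, 0 lower and 2 did not pass, by edgeR's quasi-likelihood test (Benjamini-Hochberg adjusted p under 0.05). Of all genes tested 27.1% were called higher and 26.8% lower, and 50.2% of the called genes were higher, or 62.1% with totals alone. The median log2 change was 4.09 over the mitosis genes and 1.41 over the replication genes, against 0.02 over all genes. Cenpf had 22.2, 14.2 and 16.9 CPM at D32 and 0.336 and 0.268 CPM in P-RPE, which is 58.5-fold higher (log2 change 5.87, SE 0.38, edgeR adjusted p = 1.35e-08). Ccnb1 was 48.5-fold, Rrm2 44.2-fold and Top2a 33.0-fold higher (edgeR adjusted p = 4.61e-09, 4.81e-07 and 3.50e-09). Bub1b rose least of the mitosis genes, 1.56-fold, with 30.5, 27.7 and 23.4 CPM at D32 and 16.2 and 18.6 CPM in P-RPE (edgeR adjusted p = 0.0075).

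Pcna, with 73.1 ± 6.18 CPM at D32 (SD, n = 3) and 86.7 ± 2.04 CPM in P-RPE (SD, n = 2), did not pass (log2 change -0.24, SE 0.11, edgeR adjusted p = 0.0631). It passed as lower without D32 replicate 1, at -0.32 with an edgeR adjusted p of 0.0245. It also passed as lower with RLE size factors, with a mean of at least 5 CPM and with DESeq2. E2f2 did not pass (log2 change -0.17, SE 0.36, edgeR adjusted p = 0.711). The call of E2f1 (log2 change 0.43, edgeR adjusted p = 0.0363) ended without D32 replicate 2 (0.24, adjusted p = 0.14) or P-RPE replicate 1 or 2 (adjusted p = 0.0845 and 0.174). This E2f1 call also ended with RLE size factors, DESeq2, limma-voom and the 2 groups alone. Macrophage markers summed to 161 to 278 CPM at D32 and 1342 to 1457 CPM in P-RPE, endothelial markers to 195 to 262 and 815 to 939 CPM, red cell markers to 103 to 204 and 974 to 1780 CPM, and rod and cone markers to 6.61 to 52.1 and 913 to 2562 CPM. Of these lists 10 of 10, 8 of 9, 6 of the 7 tested and 8 of 8 were called lower at D32, and 0 of the genes were at 0 in all libraries of either group except 2 red cell genes at D32. Fibroblast markers summed to 11795 to 17683 CPM at D32 and 790.2 to 1019 CPM in P-RPE, with 9 of 9 called higher. RPE markers summed to 4481 to 8579 CPM at D32 and 57329 to 64716 CPM in P-RPE, with 11 of 12 called lower. Among all genes tested, 27.1% were called higher and 26.8% lower. Of the astroglial markers 5 of 8 were called higher and 3 lower. Of the neuron markers 3 of 8 were higher and 2 lower, which is near those shares. Their part in the result was not tested.

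D18 cells and P-RPE had like sums of the 48 genes but not the same genes at the same levels. At D18, 19 genes were higher, 11 lower and 18 did not pass, by edgeR's quasi-likelihood test (Benjamini-Hochberg adjusted p under 0.05), against 27.7% of all genes called higher and 28.5% lower. The 11 of 48 called lower are no larger a share than among all genes. Kif11, the kinesin that pushes spindle poles apart, was the furthest up, with 8.0, 5.36 and 7.83 CPM at D18 and 0.951 and 0.857 CPM in P-RPE (7.79-fold, log2 change 2.96, SE 0.30, edgeR adjusted p = 6.25e-07). Cenpf was 6.90-fold and Ccnb1 3.02-fold higher (edgeR adjusted p = 2.11e-05 and 5.90e-04). Bub1b was 6.45-fold lower, with 3.03, 2.24 and 2.82 CPM at D18 and 16.2 and 18.6 CPM in P-RPE (log2 change -2.69, SE 0.19, edgeR adjusted p = 1.39e-08). Cdk1 was 3.06-fold lower, with 4.47, 5.25 and 6.52 CPM at D18 and 18.9 and 14.2 CPM in P-RPE (edgeR adjusted p = 4.76e-06). Mcm10 and E2f8 were 2.19-fold and 2.12-fold lower (edgeR adjusted p = 0.00171 and 0.00889). Both of these calls ended with the 2 groups modelled alone (edgeR adjusted p = 0.0651 and 0.147).

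Astroglial markers summed to 24593 to 36223 CPM at D18 and 511 to 709.8 CPM in P-RPE, with 8 of 8 called higher, as were 8 of 9 fibroblast markers (3354 to 14482 CPM at D18 and 790.2 to 1019 CPM in P-RPE), 6 of 8 neuron markers and 7 of the 9 relatives of multiciliated cells tested. Macrophage markers had 10 of 10 called lower (11.1 to 41.2 CPM at D18 and 1342 to 1457 CPM in P-RPE) and endothelial markers 9 of 9 (2.62 to 11.4 CPM at D18 and 815 to 939 CPM in P-RPE). Of the rod and cone, RPE and red cell markers, 8 of 8, 11 of 12 and 6 of the 7 tested were called lower. Their part in the result was not tested. By role, 6 of the 11 licensing and helicase genes were lower at D18 than in P-RPE and 1 was higher, while 12 of the 24 mitosis genes were higher and 3 lower. Among all genes tested, 27.7% were called higher and 28.5% lower. Ccne2 (0.91, edgeR adjusted p = 0.0576), Ccnb2 (0.73, 0.114), Mybl2 (0.39, 0.139) and Cenpe (0.38, 0.335) had the largest positive log2 changes that did not pass. Without P-RPE replicate 2, Ccnb2 passed as higher, at 1.37 with an edgeR adjusted p of 0.0326. The counts rest on few libraries: without P-RPE replicate 2 there were 12 higher and 6 lower, and with the 2 groups modelled alone 12 and 5. Single calls that ended on leaving out a library include those of Kif23 (log2 change -0.93, edgeR adjusted p = 0.0316), without D7 replicate 1, D18 replicate 1 or 2 or either P-RPE library (adjusted p from 0.0568 to 0.154), and of Rrm2 and E2f8 without P-RPE replicate 2 (adjusted p = 0.0572 and 0.0772). The Kif23 call also ended with totals alone, no filter, limma-voom, the 2 groups alone and a replicate block. The Rrm2 call also ended with limma-voom.

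**Figure D5:**
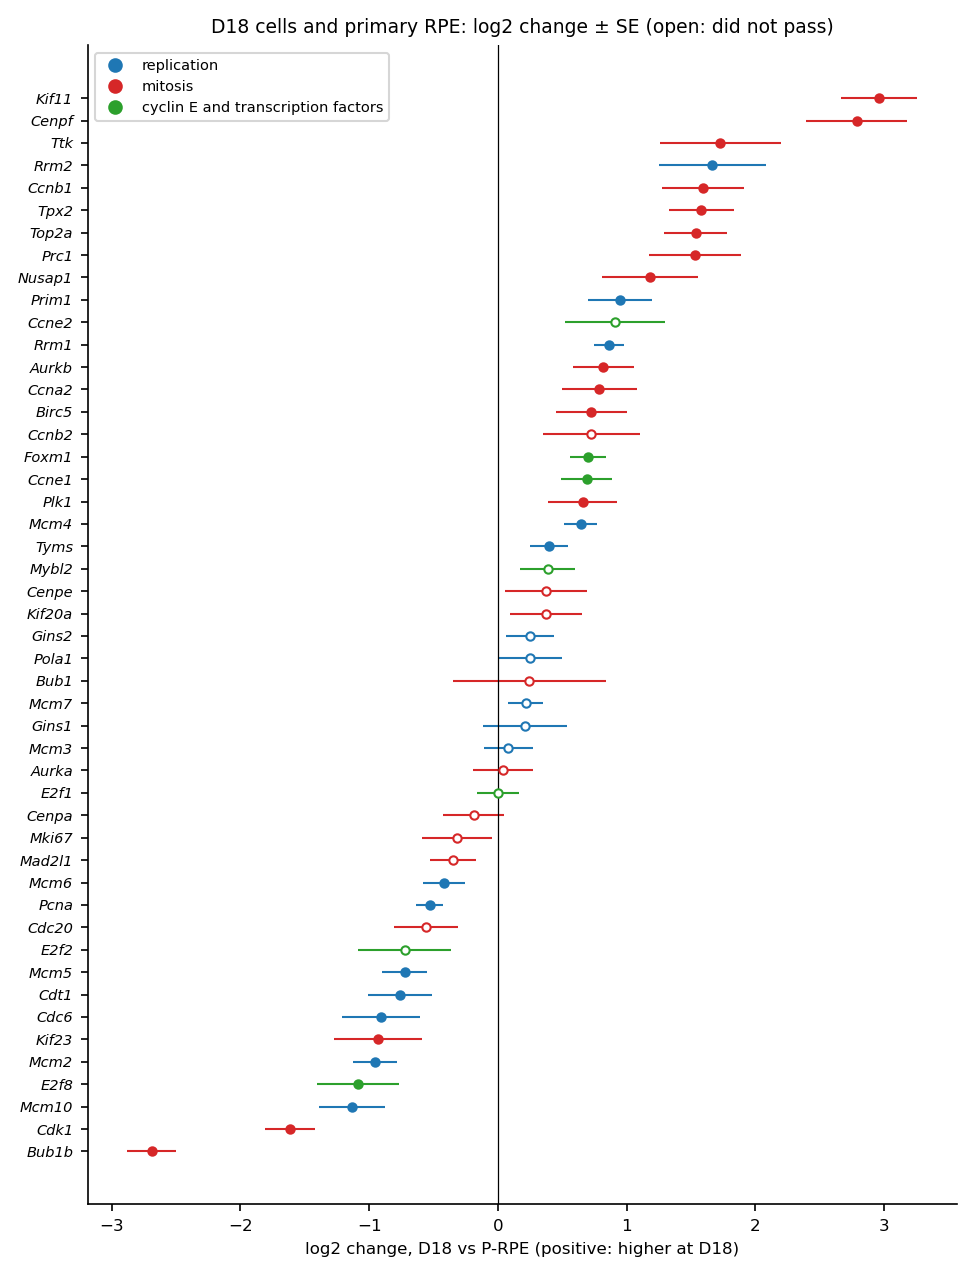
log2 change at D18 against P-RPE for each of the 48 genes, sorted, with bars for the SE and open points for genes that did not pass. Kif11 is at 2.96 at the top and Bub1b at -2.69 at the bottom, and 18 genes are open.

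Other genes of the same processes were counted from lists of genes that are not among the 48. These lists too were chosen with earlier results of these data known. Of 54 further replication genes, 44 were lower, 1 higher and 9 did not pass at D7 against MEF, 41 were lower and 3 higher at D18 against D7, and 35 were higher and 6 lower at D32 against D18. Of 79 further mitosis genes, 77 were lower and 1 higher at D7 against MEF, 72 lower and 1 higher at D18 against D7, and 73 higher and 1 lower at D32 against D18. Of the 54, 10 did not pass at D18 against D7 and 13 at D32 against D18. Of the 79, 1, 6 and 5 did not pass in these comparisons, in the order given. All counts are from edgeR's quasi-likelihood test (Benjamini-Hochberg adjusted p under 0.05) over all genes. Among all genes tested, 26.5%, 27.4% and 26.1% were called lower and 28.5%, 29.2% and 29.9% higher. The smaller of the counts each time is a lower share than among all genes. The median log2 changes over the 79 were -1.79, -1.99 and 2.46 in these comparisons, and over the 54 they were -0.87, -1.22 and 0.70. Rpa1, which binds single-stranded DNA, went the other way, with 167 ± 27.2 CPM at D18 and 93.9 ± 2.93 CPM at D7 (log2 change 0.83, SE 0.12, edgeR adjusted p = 2.38e-05). Pttg1, known as securin, also rose, to 35.7 ± 0.991 CPM at D18 against 19.3 ± 1.54 CPM at D7 (log2 change 0.89, SE 0.12, edgeR adjusted p = 2.17e-05), and was lower at D32 than at D18 by 0.73 (SE 0.12). Esco2, which acetylates cohesin in S phase, was 0.258 ± 0.0793 CPM at D18 and 3.74 ± 0.627 CPM at D7, and was higher again at D32 (log2 change 4.30, SE 0.42, edgeR adjusted p = 5.88e-07). Rfc1, part of the clamp loader, and Stmn1, a regulator of microtubules, were the most abundant genes of their lists that did not pass at D18 against D7 (adjusted p = 0.11 and 0.318).

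Of 22 genes for G1 cyclins, their kinases and pocket proteins, 15 were lower and 3 higher at D7 against MEF, 13 lower and 4 higher at D18 against D7, and 11 higher and 4 lower at D32 against D18. Over all genes the shares called lower and higher were 26.5% and 28.5%, 27.4% and 29.2%, and 26.1% and 29.9% in these 3 comparisons, so that the smaller of the counts in each is no larger a share than among all genes. Rb1, the retinoblastoma protein, was the largest rise at D18 of these, with 117 ± 12.4 CPM at D18 and 32.7 ± 6.58 CPM at D7 (log2 change 1.83, SE 0.20, edgeR adjusted p = 1.74e-06), and it was lower at D32 than at D18 by 1.66 (SE 0.20). Cdk6, a G1 kinase, had 19.4 ± 1.60 CPM at D18 and 118 ± 10.8 CPM at D7 (log2 change -2.60, SE 0.12, edgeR adjusted p = 3.96e-10). Of 7 CDK inhibitors, 2 were higher and 2 lower at D7 against MEF, which is near the 28.5% and 26.5% of all genes. At D18 against D7, 2 were higher and 4 lower, where 29.2% of all genes were called higher and 27.4% lower, and the 2 higher are about that share. Cdkn1a, known as p21, had 200.2 ± 49.3 CPM at D18 and 859.8 ± 6.71 CPM at D7 (log2 change -2.10, SE 0.19, edgeR adjusted p = 2.68e-07). At D32 against D18, 2 of the 7 were higher, 1 was lower and 4 did not pass. Neither share is larger than the 29.9% higher and 26.1% lower among all genes. Cdkn2a, which encodes p16 and p19Arf, was the 1 called lower, with 33.0 ± 12.3 CPM at D32 and 143 ± 17.6 CPM at D18 (log2 change -2.12, SE 0.19, edgeR adjusted p = 2.57e-07). The 2 called higher were Cdkn1c (log2 change 2.38, SE 0.27, edgeR adjusted p = 3.64e-06) and Cdkn1a (log2 change 0.60, SE 0.18, edgeR adjusted p = 0.012).

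A further list held 10 cell cycle relatives used by multiciliated cells, which build many cilia after leaving the cycle, and 9 of them were tested. At D18 against D7, 7 of the 9 were higher and 1 lower, and at D32 against D18, 5 were lower and 1 higher, against the same shares of all genes as for the G1 list. Gmnc, the geminin relative that starts that programme, had 2.99 ± 1.51 CPM at D18 and 0 counts over the D7 libraries. Set against a floor of 3 counts over the D7 group it was at least 123-fold higher (edgeR adjusted p = 9.31e-06). Plk4, which licenses the copying of centrioles in dividing cells too, was lower at D18, with 2.38 ± 0.520 CPM at D18 and 7.52 ± 0.561 CPM at D7 (log2 change -1.66, SE 0.22, edgeR adjusted p = 1.08e-05).

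Across the 14 libraries, the log2 CPM of a gene and the mean of the other 47 had a Pearson correlation of 0.459 for E2f2, 0.751 for Pcna and 0.825 for Bub1b, the lowest, and of 0.995 for Plk1, the highest. Of 20272 other genes in no list, those most like the mean of the 48 over the 14 libraries were Atad2, Uggt1, Tex10, Rps2-ps10 and Qrich1, with Pearson correlations from 0.993 to 0.989. Atad2 had 82.5 ± 5.12 CPM in MEF, 26.7 ± 2.14 at D7, 5.54 ± 0.184 in D18 cells, 26.7 ± 8.88 in D32 cells (SD, n = 3 each) and 5.20 ± 0.275 CPM in P-RPE (SD, n = 2). The changes of others were smaller. Uggt1 had means of 238 CPM in MEF and 80.4 CPM at D18, and Qrich1 of 120 and 65.0 CPM. The correlations do not measure the size of a change. They describe libraries that fall into 5 groups, and they were not taken within a group.

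By GENCODE vM21, 12 of the 48 genes share exon bases with another gene, most on the opposite strand. The largest shares were 67.3% of the exon length of Gins2 with Gse1, 29.3% of Kif20a with Cdc23 and 17.4% of Ccne2 with Ints8. Pcna, Tyms, Ccnb1 and Ccnb2 have annotated pseudogenes. As the strand setting of the counting is not stated, the values of these genes are uncertain to that extent.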

How the data were processed

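Total RNA was sequenced in 14 mouse libraries of 5 groups, grouped and numbered by the titles that GEO gives. Per the labels, the kit was NEBNext Ultra and reads were paired. The deposited table holds counts made by the authors, whole numbers per gene symbol and library. Tools listed per the submitters' processing notes, with no role given, are edgeR 4.0.16, limma 3.58.1, STAR 2.7.11a and featureCounts, with the builds mm10, GRCm38 and GRCh38. The strand setting and the annotation are not given in the sources used here. A table whose 10 columns match no sample of the labels was not used.

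The counts were fitted in R 4.3.3 with edgeR 4.0.16 (TMM scaling, filterByExpr by group, a robust quasi-likelihood fit of 5 group means to all 14 libraries), and 7 comparisons were read from that fit. P-values were adjusted by Benjamini-Hochberg over all 20562 genes and called under 0.05. The SE is the size of the log2 change over the square root of F. CPM use the scaled totals, and log2 CPM a prior count of 2. Floors and counting limits cover counting error only.

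The 48 members, their roles and the other lists were chosen with earlier results of these data known. Values by library are given for Mki67, Top2a and, in each other role, the gene with the highest mean CPM per kb and the one with the largest change at D32 against D18. Genes whose call differs from the most common one are named, with at most 4 each way. For other lists, the called genes with the largest changes each way and the most abundant that did not pass could be named, and the text gives some of them. Cenpf, Kif11, Rrm1, Nusap1, Bub1b, Cdk1 and Cdt1 are also named outside these rules in some comparisons, after their values were seen. Coordinates of genes are from GENCODE vM21 (GRCm38), which matched 53292 of 55291 symbols (96.4%).

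The alternatives tried were DESeq2's size factors (RLE), scaling by totals, a filter at a mean of 5 CPM or none, DESeq2 1.42.0, limma-voom, 2 groups alone, a replicate block and leaving out each library.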

Additional observations from a re-analysis of the deposited data

How the results depend on the processing

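The counts of members called kept to within 1.5 times in every comparison and setting, apart from those that follow. The 1 gene called higher at D7 against MEF became 0 with RLE size factors, with no filter and with a mean of at least 5 CPM, where E2f2 is not tested, and 0 to 1 on leaving out a library. The 0 genes called lower at D32 against P-RPE became 1 with RLE, with a mean of at least 5 CPM and with DESeq2, and 0 to 1 on leaving out a library. At D18 against P-RPE, the 19 called higher became 12 with limma-voom and 12 with the 2 groups alone, and 12 to 21 on leaving out a library, and the 11 called lower became 7, 5, and 6 to 13. Of 2459 values of single genes over these settings, 2377 kept direction and side of the threshold, 54 lost it, 25 gained it and 3 reversed. The reversed values were the log2 changes of Pcna at D7 against MEF with totals alone (0.073), of Mcm4 at D32 against D18 without D32 replicate 1 (-0.015, in a range from -0.015 to 0.18 over the libraries left out) and of E2f2 at D32 against P-RPE with totals alone (0.058). The cause of these changes was not tested. Scaling by totals alone moved the median log2 change of all genes by 0.32 at D7 against MEF, -0.21 at D18 against D7, 0.20 at D32 against MEF, 0.23 at D32 against P-RPE and 0.14 at D18 against P-RPE, and the members called there were 45, 48 and 47 lower, 46 higher, and 21 higher and 9 lower. Same-numbered libraries of different groups did not deviate together (26 pairs, correlations from -0.0967 to 0.0953), and with the replicate number as a block 17 genes were called higher and 10 lower at D18 against P-RPE, and 46 higher at D32 against D18. One spread was shared by groups that differ in theirs, and P-RPE has 2 libraries. Genes below 1 CPM, such as Bub1 at D18, rest on few counts.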
